A study of Mus musculus with 10 samples.

Results

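*Rit1*, 7 related small GTPase genes (*Hras*, *Nras*, *Rras*, *Rras2*, *Mras*, *Rap1a* and *Rap1b*) and *Lztr1* were followed in the hearts of mice that carry a disease-associated *Rit1* allele. The 9 genes were taken by symbol from a table of 54532 genes, and all 9 had transcripts in every heart. Bulk poly(A) RNA-seq had been performed on 10 hearts, 5 from vehicle-treated mice and 5 from mice given the MEK1/MEK2 inhibitor trametinib (MEKi). Treatment began at 4 weeks of age and lasted 20 weeks, with MEKi dosed once daily at 1 mg/kg and the vehicle being carboxymethylcellulose with Tween 80. Every heart, controls included, was *Rit1* M90I/+, so no wild-type level is available here. The allele was made germline by crossing males homozygous for a conditional *Rit1* M90I allele with females homozygous for a ubiquitous CMV-Cre deleter transgene. FPKM, a fragment count scaled to gene length and by a factor for each library, adds the mutant and the wild-type transcript together. The question addressed here is whether 20 weeks of MEK inhibition left a different transcript supply of the GTPases, or of the adaptor that controls RIT1, in these hearts.

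RAS-family GTPases are molecular switches. They bind RAF kinases when loaded with GTP and thereby start the RAF-MEK-ERK (MAPK) cascade, and GTP hydrolysis turns them off. LZTR1 is the substrate receptor of a cullin 3 ubiquitin ligase that marks RIT1, MRAS and other RAS-family proteins for degradation. RIT1 variants found in Noonan syndrome, a developmental disorder that often includes hypertrophic cardiomyopathy, escape this degradation. That control acts on protein, whereas the values reported here are transcript levels.

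The reference sequence around codon 90 of *Rit1* is shown because it is the site of the allele carried by all 10 hearts. Capitals mark codon 90, which encodes methionine in the wild-type reference. The stretch lies in exon 5 of 6 of Rit1-201, on the plus strand at chr3:88726292-88726330 (GRCm38, GENCODE M21), with the codon at chr3:88726310-88726312.
Rit1: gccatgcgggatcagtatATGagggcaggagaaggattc
The deposited table holds levels per gene and no reads, so the 2 alleles could not be counted separately.

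The ends of the coding sequences are shown because they separate the members by how the proteins reach membranes. Most RAS proteins end in a CAAX box, whose cysteine receives a lipid. The last 9 codons, stop codon included, are given 5′ to 3′ on the coding strand, with a cysteine codon at the fourth place from the protein's end in capitals.
Rit1: aggaggaagaaagactcggtcacctga
Hras: atgagctgcaaaTGTgtgctgtcctga
Nras: atggggctgcccTGTgtgctgatgtag
Rras: ggaggatgtcccTGTgtcctgctgtag
Rras2: aaaggctgccatTGTgtcattttctaa
Mras: cacaaactgcagTGTgtcatcttgtga
Rap1a: aaaaagaaatcaTGTttgctgctctag
Rap1b: aaaaagtcatcgTGTcagctgctttaa
All come from GENCODE M21 transcripts on GRCm38. Their positions, in the order printed, are chr3:88729316-88729342 (plus), chr7:141191348-141191374 (minus), chr3:103063423-103063449 (plus), chr7:45021338-45021364 (plus), chr7:114048164-114048190 (minus), chr9:99388405-99388431 (minus), chr3:105731985-105732011 (minus) and chr10:117817374-117817400 (minus). The cysteine codon was present in 7 of the 8 GTPases and absent from *Rit1*, whose protein is known to associate with membranes through a basic tail without a lipid anchor.

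The depth was 13647167 to 16659254 gene-assigned fragments in vehicle hearts and 14868373 to 18474002 in MEKi-treated hearts. Mitochondrial genes took 24.7 to 35.0% and 24.0 to 28.7% of them. Differences were tested on log2(FPKM + 0.1) by limma over 12602 genes, those averaging 0.5 FPKM or more, and all 9 members passed that filter. A fold change on this scale slightly understates the change of a gene at low FPKM. The labels assign no sex to a heart, and littermates of both sexes had entered the trial. *Xist*, which is transcribed from the inactive X chromosome, had at most 2 fragments in any vehicle heart and 1456 to 2199 in MEKi-treated hearts. The Y-linked genes *Ddx3y* and *Eif2s3y* averaged 11.2 ± 0.714 and 9.74 ± 1.01 FPKM in the vehicle group (SD, n = 5) and had 0 fragments in every MEKi-treated heart. X- and Y-linked transcripts thus divided the hearts exactly as treatment did, and their contributions to every difference given here cannot be told apart. All 9 members are autosomal.

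The members differed widely in mean level over the 10 hearts. *Rras* was the highest at 45.6 FPKM, above 93.2% of the genes tested, and *Mras* the lowest at 1.20 FPKM, above 19.6% of them. Between them, in descending order, were *Rap1b* at 30.5, *Rap1a* at 22.3, *Hras* at 18.9, *Rit1* at 16.8, *Rras2* at 13.8, *Lztr1* at 5.42 and *Nras* at 4.35 FPKM. Some neighbours in this order were separated in every heart and others were not. Within each of the 10 hearts, *Rras* exceeded *Rap1b* (1.49-fold on average), *Rap1b* exceeded *Rap1a* (1.35-fold), *Rras2* exceeded *Lztr1* (2.54-fold), *Lztr1* exceeded *Nras* (1.24-fold) and *Nras* exceeded *Mras* (3.72-fold). *Rap1a* exceeded *Hras* in 9 of 10 hearts, and *Hras* exceeded *Rit1*, and *Rit1* exceeded *Rras2*, in 8 of 10. The middle of the order, from *Rap1a* to *Rras2*, was therefore not resolved in every heart. The order also rests on the gene length used in FPKM, 1121 bases for *Rras* and 3733 for *Hras*. Fragments per heart were 482 to 1055 for *Rras* and 778 to 1547 for *Hras*. The plot of FPKM by heart shows this order and the spread in each group.

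**Figure D1:**
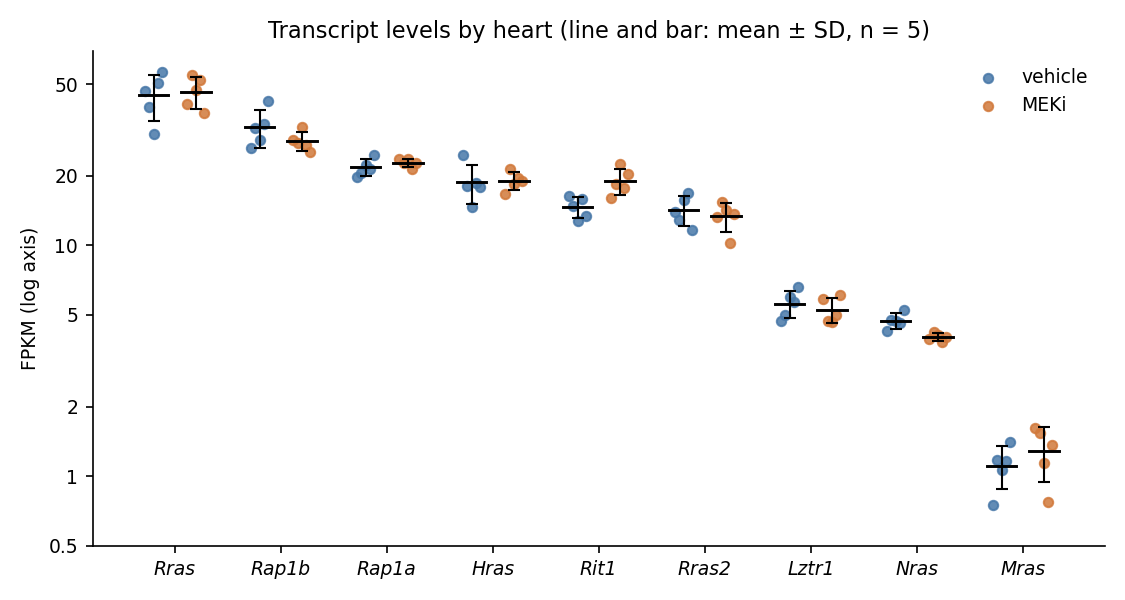
FPKM (log axis) of the 9 genes in each of 5 vehicle (blue) and 5 MEKi-treated (orange) hearts, ordered by mean level, with horizontal lines for group means and bars for the SD. *Nras* is the gene whose groups do not overlap (vehicle, 4.24 to 5.26; MEKi, 3.80 to 4.21), and 4 of 5 MEKi-treated hearts exceed every vehicle heart for *Rit1*.

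No member passed the threshold between MEKi-treated and vehicle hearts (limma, adjusted p under 0.05 over all genes tested), against 10 of the 12602 genes, or 0.0794%. When genes of chromosomes X and Y and of the mitochondrial genome were dropped, which keeps every member, 0 of 12178 genes passed in limma and 924 had an unadjusted p under 0.05. At an unadjusted p under 0.05 there were 2 members, *Rit1* and *Nras*, against 960 genes, or 7.62% of those tested. Voom on the recovered fragments also called 0 members, with 1 at an unadjusted p under 0.05. The groups did not overlap for 1 member, *Nras*, against 1.64% of genes (107 lower and 100 higher with MEKi). The log2 fold change was above 0 for 5 members and below 0 for 4. Their median was 0.04, beside 0.01 over all genes tested.

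**Figure D2:**
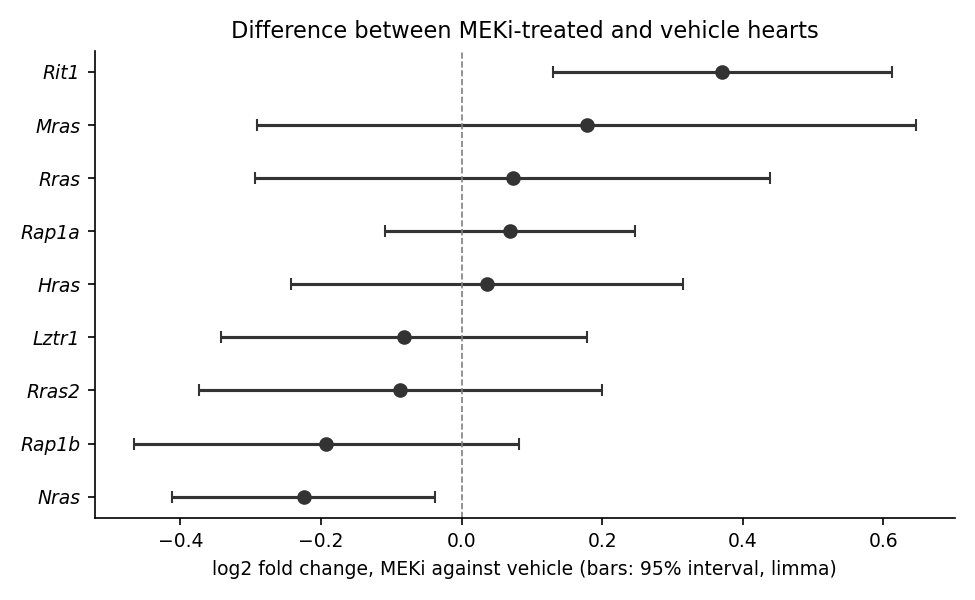
Log2 fold change of each gene, MEKi against vehicle (points), with its 95% interval from limma (bars), on log2(FPKM + 0.1) with 5 hearts per group. The intervals of *Rit1* (0.13 to 0.61) and *Nras* (−0.41 to −0.04) lie on either side of 0, those of the other 7 genes include 0, and no gene passes after adjustment over all genes.

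*Rit1* (chromosome 3, 88716838 to 88731049, plus strand) encodes the GTPase altered in these mice. Its FPKM in vehicle hearts 1 to 5 was 16.4, 14.8, 12.8, 15.8 and 13.4. In MEKi-treated hearts 1 to 5 it was 16.0, 18.5, 22.5, 17.7 and 20.4. Of the MEKi-treated hearts, 4 lay above every vehicle heart, and MEKi 1 lay below vehicle 1. The means were 14.6 ± 1.53 and 19.0 ± 2.5 FPKM (SD, n = 5 each). The log2 fold change of 0.37 (SE 0.11, 95% interval 0.13 to 0.61) had an unadjusted p of 0.00588 and an adjusted p of 0.445 by limma. *Rit1* ranked 164 of 12602 genes by unadjusted p. Each value rested on 588 or more fragments, so counting error at the lowest was 4.12%, below the spread between hearts. *Gm17146*, annotated over 581 bases of *Rit1*, had at most 5 fragments in any heart.

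*Lztr1* (chromosome 16, 17508688 to 17526333, plus strand) encodes the adaptor that brings RIT1 to the cullin 3 ligase. Its FPKM was 4.70, 4.99, 5.96, 5.66 and 6.60 in vehicle hearts 1 to 5 and 5.83, 4.72, 4.68, 5.00 and 6.07 in MEKi-treated hearts 1 to 5. The groups overlapped over most of their ranges. The means were 5.58 ± 0.761 and 5.26 ± 0.649 FPKM (SD, n = 5 each), with a log2 fold change of −0.08 (SE 0.12, adjusted p = 0.909 in limma). The 95% interval, −0.34 to 0.18, corresponds to between 0.788-fold and 1.13-fold. The log2 fold change ran from −0.14 without vehicle 1 to −0.02 without vehicle 5.

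The ratio of *Rit1* to *Lztr1* FPKM was formed in each heart, since it sets the transcript of a substrate against that of its receptor. It was 3.48, 2.97, 2.15, 2.80 and 2.02 in vehicle hearts 1 to 5 and 2.74, 3.92, 4.80, 3.54 and 3.35 in MEKi-treated hearts 1 to 5. In the MEKi group 3 hearts lay above every vehicle heart, and MEKi 1 lay below 3 vehicle hearts. The ratio averaged 2.68 ± 0.603 with vehicle and 3.67 ± 0.762 with MEKi (SD, n = 5 each), a difference of 0.46 on the log2 scale or 1.37-fold. This did not pass a two-sided exact permutation test over the 252 assignments of hearts to groups of 5 (p = 0.0714, where 0.00794 is the smallest possible). Without vehicle 1 the difference was 0.56 (exact permutation p = 0.0476) and without MEKi 1 it was also 0.56 (exact permutation p = 0.0317). These are the vehicle heart with the highest ratio and the MEKi-treated heart with the lowest, so leaving out either must widen the difference. The exact p lay between 0.0952 and 0.143 when any of the other hearts was left out.

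**Figure D3:**
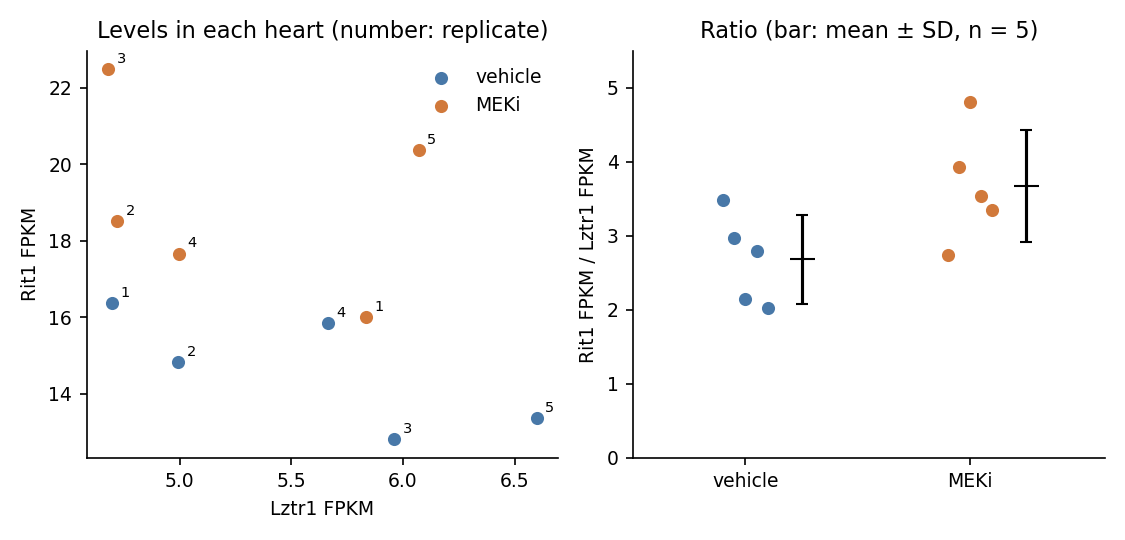
Left, *Rit1* FPKM against *Lztr1* FPKM in each heart, numbered by replicate (vehicle, blue; MEKi, orange; the axes do not start at 0). Right, the ratio of the 2 values in each heart, with the mean and SD of 5 hearts; the group means are 2.68 and 3.67 and MEKi 1 (2.74) lies among the vehicle hearts.

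*Nras* (chromosome 3, 103058285 to 103067914, plus strand) and *Hras* (chromosome 7, 141189105 to 141194005, minus strand) encode classical RAS proteins, which receive signals from receptor tyrosine kinases through exchange factors. *Nras* was at 4.24, 4.75, 4.68, 4.59 and 5.26 FPKM in vehicle hearts 1 to 5 and at 3.93, 4.21, 4.07, 3.80 and 4.01 FPKM in MEKi-treated hearts 1 to 5. The groups were separate, with the MEKi hearts lower, by a narrow margin between MEKi 2 (4.21) and vehicle 1 (4.24). The means were 4.70 ± 0.368 and 4.00 ± 0.154 FPKM (SD, n = 5 each). The log2 fold change was −0.22 (SE 0.09, 95% interval −0.41 to −0.04), with an unadjusted p of 0.0227 and an adjusted p of 0.563 by limma. Without vehicle 5, the highest heart, it was −0.18 (adjusted p = 0.724 in limma). The lowest *Nras* count, 319 fragments in MEKi 3, carries a counting error of 5.60%. That is larger than the margin between MEKi 2 and vehicle 1, which had 385 and 380 fragments. The SD of the MEKi hearts, 3.86% of their mean, was also below that counting error.

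*Hras* was at 24.6, 18.1, 14.7, 18.6 and 18.0 FPKM in vehicle hearts 1 to 5 and ranged from 16.7 to 21.5 FPKM in MEKi-treated hearts. The vehicle group held both the highest and the lowest heart, vehicle 1 and vehicle 3. The means were 18.8 ± 3.62 and 19.1 ± 1.74 FPKM (SD, n = 5 each), with a log2 fold change of 0.04 (SE 0.13, 95% interval −0.24 to 0.31, adjusted p = 0.963 in limma). Its sign turned without vehicle 3 (−0.05) or without MEKi 2 (−0.0085).

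*Rras* (chromosome 7, 45017961 to 45021647, plus strand), *Rras2* (chromosome 7, 114046782 to 114117781, minus strand) and *Mras* (chromosome 9, 99385420 to 99437381, minus strand) encode the R-RAS group, and MRAS is the member that assembles with SHOC2 and protein phosphatase 1 to dephosphorylate RAF. *Rras* ranged from 30.2 to 56.2 FPKM in vehicle hearts and from 37.3 to 54.8 FPKM in MEKi-treated hearts, with means of 44.7 ± 10.1 and 46.4 ± 7.38 (SD, n = 5 each). Its log2 fold change was 0.07 (SE 0.17, adjusted p = 0.947 in limma), and without vehicle 3, its lowest heart, −0.06. *Rras2* ranged from 11.7 to 16.9 and from 10.3 to 15.5 FPKM, with a log2 fold change of −0.09 (SE 0.13, adjusted p = 0.911 in limma). Without MEKi 4 the *Rras2* value was 0.0042. The groups overlapped for both genes.

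*Mras* was at 0.752, 1.18, 1.07, 1.16 and 1.41 FPKM in vehicle hearts 1 to 5 and at 1.61, 1.54, 1.14, 0.773 and 1.36 FPKM in MEKi-treated hearts 1 to 5. The lowest hearts of both groups were nearly level, and the 2 highest hearts were MEKi-treated. The log2 fold change was 0.18 with the widest interval of the 9 genes (SE 0.21, 95% interval −0.29 to 0.65, adjusted p = 0.886 in limma). With as few as 65 fragments in a heart its counting error reached 12.4%. A change of up to 1.56-fold higher or down to 0.818-fold was not resolved for *Mras* at this depth and number of hearts. Its fitted value ranged from 0.06 without vehicle 1 to 0.33 without MEKi 4.

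*Rap1a* (chromosome 3, 105727267 to 105801336, minus strand) and *Rap1b* (chromosome 10, 117813871 to 117846035, minus strand) encode nearly identical GTPases that act on integrins and cell junctions. *Rap1a* ranged from 19.9 to 24.7 FPKM in vehicle hearts and from 21.4 to 23.6 FPKM in MEKi-treated hearts, with a log2 fold change of 0.07 (SE 0.08, 95% interval −0.11 to 0.25, adjusted p = 0.881 in limma). This interval was the narrowest of the 9 genes, and the value ran from 0.04 without vehicle 1 to 0.11 without vehicle 5. *Rap1b* was at 26.4, 32.3, 28.6, 33.5 and 42.4 FPKM in vehicle hearts 1 to 5 and ranged from 25.4 to 32.5 FPKM in MEKi-treated hearts. Vehicle 5 stood highest, and the log2 fold change of −0.19 (SE 0.13, 95% interval −0.47 to 0.08, adjusted p = 0.757 in limma) was −0.09 without it. The longest identical run between *Rap1a* and *Rap1b* transcripts was 20 bases. Among all pairs of members it was 23 bases, for *Hras* with *Nras* and *Rras* with *Rras2*. The pseudogenes *Nras-ps2* and *Rap1a-ps2* had 0 fragments in every heart.

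Vehicle 5, the heart with the highest *Nras*, *Rap1b*, *Rras*, *Rap1a* and *Lztr1*, also had the highest summed markers of endothelial cells (158 FPKM, against 93.8 to 128 in the other hearts), fibroblasts (183 against 118 to 160), smooth muscle cells and pericytes (203 against 140 to 167) and macrophages and lymphocytes (39.7 against 18.3 to 31.5), and the lowest sum of cardiomyocyte markers (12083 FPKM). Their part in the result was not tested. In bulk tissue, fewer cells of a type and less RNA per cell cannot be told apart. Red cell markers summed to 25698 FPKM in vehicle 5 and 23485 FPKM in vehicle 4, against 2885 to 7357 in the other hearts. Cardiomyocyte markers were abundant in all hearts, at 12083 to 16586 FPKM in vehicle and 12151 to 16386 FPKM in MEKi-treated hearts, which fits the tissue label. Atrial markers were uneven, at 181 to 2136 FPKM with vehicle and 125 to 1075 FPKM with MEKi. They were highest in vehicle 4 (2136), MEKi 2 (1075) and vehicle 5 (802), which are among the 4 hearts with the highest *Rras*. Their part in the *Rras* values was not tested, and which portion of each heart was used is not given in the sources used here. Of 40 marker genes in 8 lists, 36 were tested by limma, 0 had an adjusted p under 0.05 and 2 had an unadjusted p under 0.05.

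Spread between hearts differed widely among the members. The residual SD on the log2 scale was 0.0864 for *Nras* and 0.0941 for *Rap1a*, lower than in all but 1.44% and 2.15% of the genes tested. It was 0.297 for *Rras* and 0.351 for *Mras*, above the median of 0.246. The other 5 members lay between 0.170 (*Rit1*) and 0.217 (*Rras2*), so 7 of 9 were below the median gene. The genes compared were not matched to the members for level.

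The composition of the GTPase transcripts was read as the share of each gene in the summed FPKM of the 8 GTPases. Like the order of levels, the size of a share depends on the gene length used in FPKM. The sum itself averaged 153 ± 16.5 FPKM in the vehicle group and 154 ± 10.5 FPKM in the MEKi group (SD, n = 5 each). *Rras* had the largest mean share, 29.0 ± 3.70% and 30.0 ± 3.42%, and *Rap1b* the next, 21.3 ± 2.68% and 18.3 ± 1.42%. *Rit1* made up 9.66 ± 1.14% in vehicle (7.73 to 10.7%) and 12.3 ± 1.49% in MEKi-treated hearts (11.1 to 14.1%). Its shares, unlike its levels, did not overlap, by a narrow margin between vehicle 1 (10.7%) and MEKi 1 (11.1%). Of the 8 GTPases, only *Rit1* had shares without overlap. Shares were formed for these genes only, so no rate over all genes can be set beside this. *Nras* made up 3.11 ± 0.344% and 2.60 ± 0.141%. Its shares, unlike its levels, overlapped (lowest vehicle heart 2.77%, highest MEKi-treated heart 2.79%). Shares add to 100% and move against each other, and they were not tested apart from the levels.

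**Figure D4:**
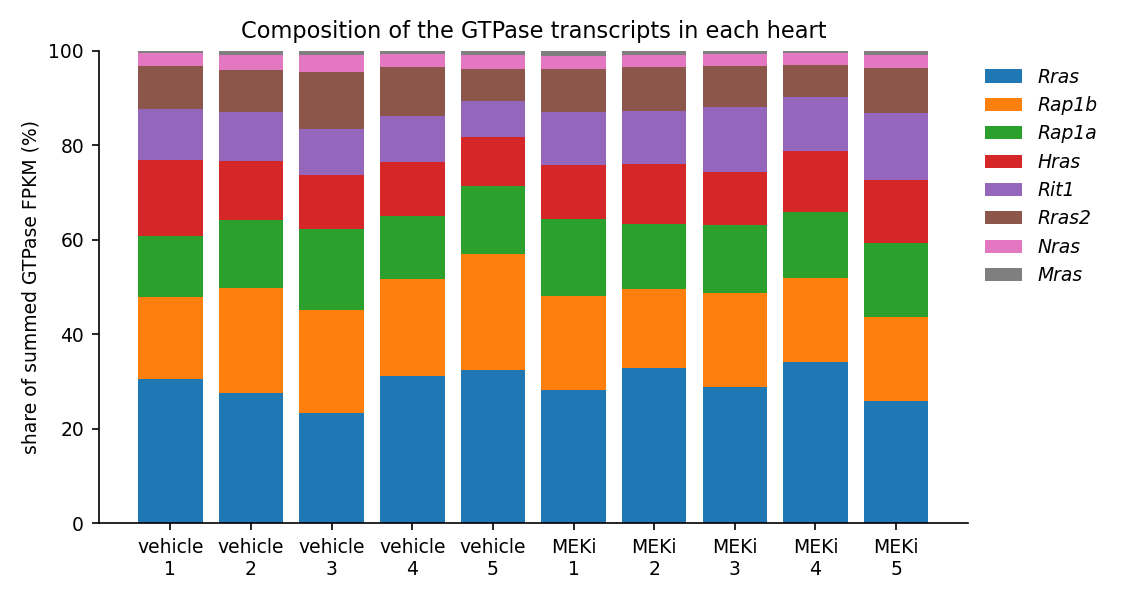
Share (%) of each GTPase in the summed FPKM of the 8 GTPases, 1 bar per heart (5 vehicle, 5 MEKi). *Rras* is the largest block in every heart, and the *Rit1* block takes 7.73 to 10.7% in vehicle and 11.1 to 14.1% in MEKi-treated hearts.

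Correlations were computed for all 36 pairs of members over the 10 hearts, which share the 2 treatments. After adjustment 0 pairs passed (lowest adjusted permutation p 0.253 for Pearson's r), and 3 had an unadjusted permutation p under 0.05. The highest was between *Nras* and *Rap1b* (r = 0.77, permutation p = 0.00783; rho = 0.62, permutation p = 0.0599, adjusted p = 0.612), and r was 0.41 without the 2 hearts farthest from the median of *Nras*, so it rested on those hearts. It was 0.91 within the 5 vehicle and 0.23 within the 5 MEKi-treated hearts, too few in each group for a test. *Rit1* with *Nras* had r = −0.72 (permutation p = 0.0183), and −0.78 without the 2 hearts farthest from the median of *Rit1*. Within vehicle hearts that r was −0.70 and within MEKi-treated hearts 0.44. *Mras* with *Rap1a* had r = 0.71 (permutation p = 0.0211), and 0.48 without the 2 hearts farthest for *Mras*. Group means were not subtracted for these pairs, so differences between groups enter r and p. With the mean of each group subtracted, the genes that followed *Rit1* most closely over the 10 hearts, of 5154 other genes above 5 FPKM, included *Cnpy2* (r = 0.85) and *Ntan1* (r = 0.82). For *Lztr1* the closest 3 were *Spry2* (r = 0.95), *Pno1* (r = 0.93) and *Tgoln1* (r = 0.90), of which *Spry2* encodes a feedback inhibitor of receptor tyrosine kinase signalling. Without the 2 farthest hearts r stayed between 0.81 and 0.93 for these 5 genes. They were picked from the highest of 5154 values, so no p is given.

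The wider pathway was described with 4 lists, and of their 46 genes past the filter 0 had a limma adjusted p under 0.05 and 6 an unadjusted p under 0.05, beside 960 of the 12602 genes tested (7.62%). Of 26 other RAS subfamily GTPases, 20 passed the filter, with 10 above 0, 10 below 0, a median log2 fold change of 0.01 and 4 at an unadjusted p under 0.05. *Rrad*, a cardiac GTPase that restrains calcium channels, was at 104 ± 43.1 and 181 ± 19.8 FPKM (SD, n = 5 each), a difference of 0.87 in log2 (SE 0.22, adjusted p = 0.314 in limma). *Rasl10a* was at 3.22 ± 1.24 and 1.62 ± 0.685 FPKM (−0.95, SE 0.34, adjusted p = 0.546 in limma). The remaining named genes of this list were *Rasl11b* (0.38) and *Gem* (−0.34).

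The 8 cullin 3 ligase partners of LZTR1 had a median log2 fold change of −0.0012 and ranged from −0.07 (*Cul3*, the scaffold) to 0.11 (*Nae1*, which helps to activate NEDD8). *Rbx1*, the RING subunit, was at 0.04 and *Nedd8* at −0.06. The 4 genes of the SHOC2 phosphatase complex had a median of 0.09, with *Ppp1ca* at 0.21 (adjusted p = 0.652 in limma), *Ppp1cc* at 0.13 and *Shoc2* at −0.01. The 14 CAAX processing and trafficking genes had a median of 0.03, from *Zdhhc9*, the X-linked palmitoyltransferase of HRAS and NRAS, at −0.27 (adjusted p = 0.649 in limma) and *Pggt1b*, a subunit of a lipid transferase, at −0.25 to *Rce1*, the CAAX protease, at 0.08 and *Abhd17c*, a depalmitoylase, at 0.25.

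**Figure D5:**
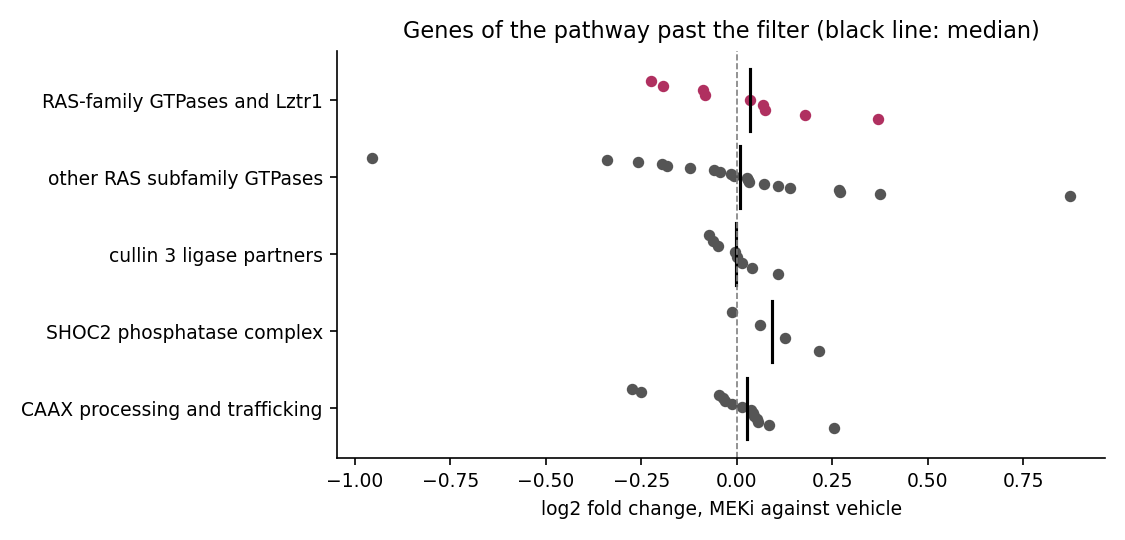
Log2 fold change, MEKi against vehicle, of each gene past the filter (points) for the 9 members and 4 lists of related genes, with the list median as a black line. Medians lie between −0.0012 and 0.09, and the outermost genes, *Rasl10a* (−0.95) and *Rrad* (0.87), do not pass after adjustment.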

How the data were processed

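Bulk heart RNA-seq of 5 vehicle and 5 MEKi-treated *Rit1* M90I/+ mice was analysed from 1 table of FPKM that the authors deposited. The submitters' processing notes name fastp, STAR 2.5, HTSeq 0.6.1 and mm10. The strand setting and annotation release are not given in the sources used here. The 9 members have the same coordinates as in GENCODE M21 (GRCm38), from whose transcripts the sequences were read. Multiplying FPKM by gene length returned whole multiples of a single step for 100% of values in each heart (tolerance 0.001), which gave the fragments behind each value. The size of that step did not follow the total of gene-assigned fragments in every heart. Counting errors given here cover counting only. The labels name the 5 hearts of each group biological replicates.

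Groups followed the labels and were compared on log2(FPKM + 0.1), two-sided, by limma 3.58.1 under R 4.3.3 (eBayes with trend) over 12602 genes, those averaging 0.5 FPKM or more. Benjamini-Hochberg adjusted p-values were read against 0.05. The fit was tested on simulated data. The *Rit1* to *Lztr1* ratio was compared by an exact permutation test. Remaining values came from Python 3.11.15 (pandas 2.3.3, numpy 2.4.6, statsmodels 0.14.6, scipy 1.17.1). Named genes were all members, in each list any called gene and the 2 with the largest log2 fold change in each direction, the 3 genes most like *Rit1* and *Lztr1* (Pearson's r, 5 FPKM or more on average), and X- and Y-linked transcripts. Of these, 1 gene is not reported here. The members and lists were chosen with earlier results of these data known. The alternatives are listed in the closing section.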

Additional observations from a re-analysis of the deposited data

Results flagged for a closer look

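In 22 groups of 5 hearts (the 9 members, the summed GTPases and the *Rit1* to *Lztr1* ratio, in each treatment group), 0 had a heart far enough from the others to pass Dixon's test at the 95% level, where chance would give about 1.1.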

How the results depend on the processing

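Pseudocounts, filters, a TPM scale, quantile normalization, eBayes without trend, array weights, voom on the recovered fragments, the replicate block, removal of X, Y and mitochondrial genes, and leaving out each heart gave 21 alternatives. Members called stayed at 0 in all, with 1 or 2 at an unadjusted p under 0.05 (limma or voom). *Nras* dropped out on the TPM scale (−0.15, SE 0.11) and with voom (−0.19, SE 0.11). It also did so with the replicate block (−0.22, SE 0.10), without vehicle 5 (−0.18, SE 0.08) and without MEKi 4 (−0.21, SE 0.10). *Rit1* was at 0.45 (SE 0.13) on the TPM scale and at 0.41 (SE 0.12) with voom. Of 187 recomputed member values the lowest adjusted p was 0.316, for *Rit1* without vehicle 1, and 4 had the other sign: *Hras* at −0.048 without vehicle 3 and −0.0085 without MEKi 2 (leaving out a heart gave −0.048 to 0.14), *Rras* at −0.060 without vehicle 3 (−0.060 to 0.16), and *Rras2* at 0.0042 without MEKi 4 (−0.15 to 0.0042). *Rit1* ranged from 0.31 to 0.45 and *Nras* from −0.26 to −0.15. The cause was not tested.

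Genes called, 10 in the fit reported, were 2 with a mean of at least 5 FPKM (where *Nras* and *Mras* drop out and fewer genes are tested), 18 with array weights, 4 with the replicate block, 0 without X, Y and mitochondrial genes (924 at an unadjusted p under 0.05), and 5 (without vehicle 2) to 13 with a heart left out. Same-numbered hearts deviated with correlations of −0.154 to −0.021, and 0 of 5 vehicle hearts correlated best with their own number. No pairing by number was seen, though 5 hearts per group cannot exclude it. With the replicate block the *Rit1* to *Lztr1* difference was 0.46 (exact sign-flip permutation p = 0.1875). With 5 pairs that test cannot give a p under 0.05, so its p decides nothing here. Leaving out a heart gave 0.35 to 0.56 (exact permutation p from 0.0317 to 0.143). On the TPM scale, which moved the median of all genes from 0.01 to 0.09, the medians of the cullin 3 partners and the CAAX genes were 0.077 and 0.10. At this number of hearts, the 95% intervals of 7 members include both directions.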
